A study of Mus musculus with 4 samples.

Results

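The genes examined are 44 genes of cytokine reception and JAK-STAT signalling, chosen by name: 24 receptor chains, 4 Janus kinases (JAKs), 5 STAT factors, 8 SOCS-family inhibitors and 3 further regulators. The choice was made with earlier results of these data known. Of the 44, 39 had a row in the deposited table of 16591 genes and 33 passed the filter on low counts, out of 11945 genes that did. The study measured RNA by sequencing in 2 libraries of a JQ1-sensitive cell line (JQ1S) and 2 of a JQ1-resistant one (JQ1R). Both are C57BL/6 mouse Eμ-Myc lines, that is, B-lymphoma cells in which an immunoglobulin heavy-chain enhancer drives Myc. Both were early-passage cells kept in the same kind of culture medium, and the labels name no drug added before harvest. JQ1 blocks the bromodomains of BET proteins, readers of acetylated histones. The comparison asks how a line that resists this drug differs from one that does not. Each kind is a single line, so effects of resistance and other differences of JQ1R from JQ1S cannot be told apart. The labels do not say that the libraries of a line came from separate cultures, so the p-values measure only the spread between libraries, which may be technical.

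Most cytokine receptors of this list have no kinase activity of their own, whereas Csf1r, Flt3 and Kit are receptor tyrosine kinases. For the JAK-coupled receptors, a bound cytokine brings receptor chains together, the JAKs attached to them phosphorylate the receptor, and STAT factors dock there, are phosphorylated and move to the nucleus as dimers that switch on target genes. Among those targets are the SOCS genes, whose products bind receptors and JAKs and damp the signal. In early B cells the receptor for IL-7, built from the chains encoded by Il7r and Il2rg, is known to drive growth and survival through JAK1, JAK3 and STAT5.

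Of the 33 tested members, 3 passed the test for a difference between the lines. Il7r, the specific chain of the IL-7 receptor, and Il6ra, the specific chain of the IL-6 receptor, fell in the resistant line. Flt3, a receptor tyrosine kinase of early blood progenitors, rose from a low level. No JAK, STAT or SOCS gene was called. The test was edgeR's quasi-likelihood test with a Benjamini-Hochberg adjusted p below 0.05 over all 11945 tested genes. The share called was 9.09% of the members (1 higher, 2 lower) beside 3.73% of all tested genes. By direction, 2.20% of all tested genes were called higher and 1.52% lower. The lines did not overlap in CPM (a gene's count per 1000000 counts of its library, with the total scaled by a TMM factor) for 15 of 33 members (45.5%), beside 47.3% of all tested genes. The resistant libraries were the higher ones for 8 members, beside 24.1% of all genes, and the lower ones for 7, beside 23.2%. The median log2 change, resistant over sensitive, was -0.03 over the members and 0.00 over all tested genes, and the median size of the change was 0.10 over the members and 0.11 over all. With an unadjusted p below 0.05 there were 4 members, the called genes and Il17ra, or 12.1%, beside 16.9% of all genes.

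Total counts were 10346007 to 13048103 per library. The cells carried the markers of B cells: all 9 B-cell markers had a row, with a summed level of 4336 to 4471 CPM in the sensitive and 4373 to 4462 CPM in the resistant libraries, and 1 of them, Cd22, was called higher. Of 8 T-cell markers 3 had a row, with 14.3 to 14.5 CPM in the sensitive and 15.2 to 16.1 CPM in the resistant libraries, nearly all of it Cd2, while Cd3e and Cd3g had none. Of 10 myeloid markers 4 had a row, at 3.78 to 4.47 CPM in sensitive and 4.85 to 5.30 CPM in resistant libraries, nearly all of it Cd68 and Itgam, and Lyz2 and Adgre1 had none. NK-cell markers (2 of 5 with a row) summed to at most 1.01 CPM, erythroid markers (2 of 6) to at most 0.680 CPM, and stromal markers (2 of 7, nearly all Pecam1, which B cells also express) to between 88.6 and 100.3 CPM. In such bulk samples, fewer cells of a type and less RNA per cell cannot be told apart.

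**Figure D1:**
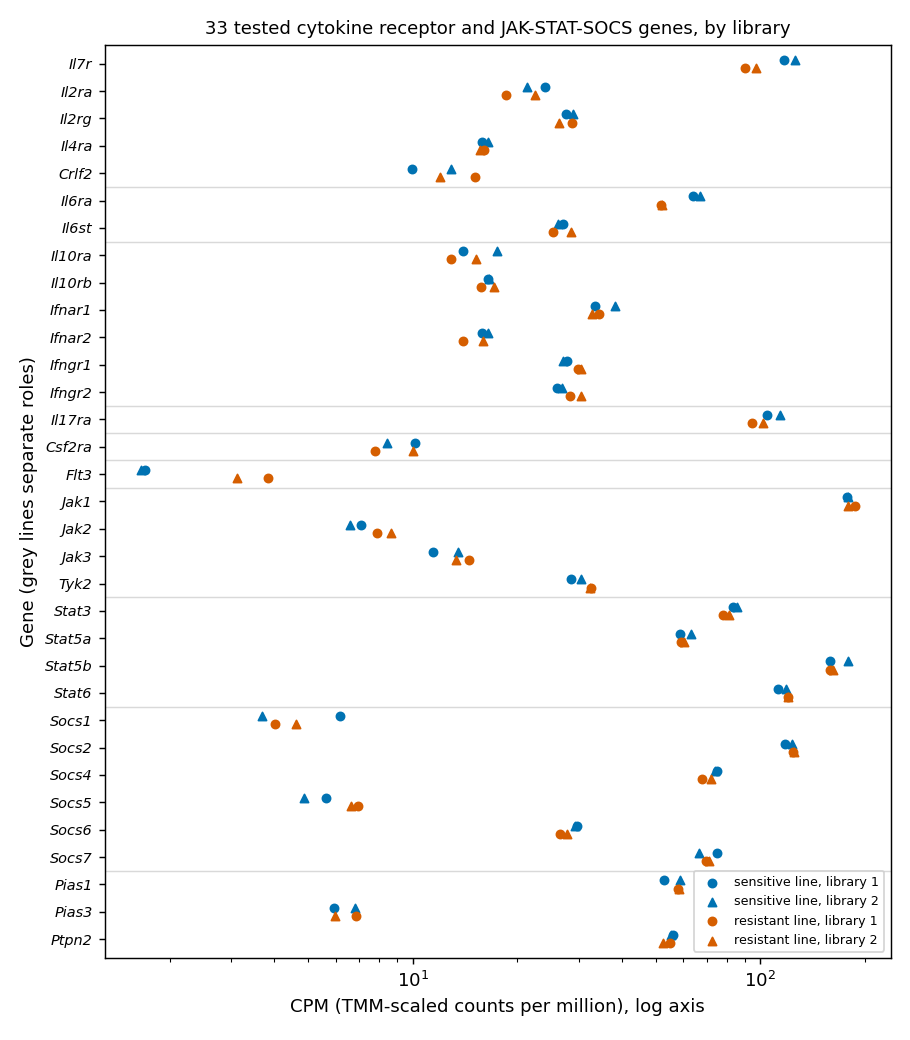
Level of each of the 33 tested genes in each of the 4 libraries, in CPM on a log axis, with blue for the sensitive and orange for the resistant line and the marker shape for the library number. The lines stand apart for Il7r, Il6ra and Flt3, and they also do not overlap for 12 of the 30 uncalled genes. That makes 15 of 33, beside 47.3% of all tested genes. The points of most uncalled genes lie close together or overlap.

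The sequence before the start of the called genes is shown because these are the members that differed between the lines. STAT dimers are known to bind the palindrome TTCNNNGAA, which reads the same on both strands, and it was searched from 250 bases before to 50 bases after each gene's start in RefSeq's GRCm38.p6 annotation. Of the 44 members 31 had an entry. Il2rb, Il12rb1, Il27ra, Il10ra, Il10rb, Il17ra, Csf2rb, Csf1r, Socs2, Socs5, Socs6, Socs7 and Ptpn2 had none. The motif was present in 5 of the 31 (16.1%), namely Il7r, Ifnar1, Ifnar2, Socs3 and Cish, beside 9.55% of the 27025 genes of the promoter table. Of the called genes, Il7r held a copy 142 bases before its start, and Il6ra and Flt3 held none. The 250 bases before the start of Il6ra (minus strand, chr3:89913197-89913446) and Flt3 (minus strand, chr5:147400490-147400739) are given 5′ to 3′ on the gene's strand in lower case. The Il7r site (minus strand, chr15:9530001-9530027) and, for comparison, the site of the feedback gene Socs3 (minus strand, chr11:117969503-117969529) are given as 27 bases with the motif in capitals. Both of these sites lie inside the longer gene models of GENCODE M21.
Il6ra: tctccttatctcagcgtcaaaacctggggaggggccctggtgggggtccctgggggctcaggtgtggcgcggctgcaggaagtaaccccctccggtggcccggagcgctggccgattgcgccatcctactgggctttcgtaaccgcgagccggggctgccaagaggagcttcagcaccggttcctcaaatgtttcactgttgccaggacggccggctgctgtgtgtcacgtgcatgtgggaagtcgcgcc
Flt3: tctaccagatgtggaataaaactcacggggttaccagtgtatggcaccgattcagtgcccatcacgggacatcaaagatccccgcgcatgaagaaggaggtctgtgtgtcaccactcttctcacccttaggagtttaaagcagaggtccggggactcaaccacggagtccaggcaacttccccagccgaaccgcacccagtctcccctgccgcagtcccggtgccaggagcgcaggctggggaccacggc
Il7r site: ttcaggagcTTCAGGGAAtaccaagat
Socs3 site: aaaccagccTTCTTAGAAgggaggggg
These letters describe a match or its absence in these windows and nothing about binding in these cells.

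Among the chains of receptors that use the common gamma chain, with the chains Crlf2, which pairs with Il7r, and Il13ra1, which pairs with Il4ra, Il7r (ENSMUSG00000003882, GRCm38 chr15:9505788-9530176, minus strand) was the highest per exon length. It stood at 117 and 126 CPM in the JQ1S libraries, against 90.1 and 96.9 CPM in the JQ1R libraries. Both resistant libraries lay below both sensitive ones. Its level fell 1.3-fold, from a mean of 122 ± 6.29 (SD) to 93.5 ± 4.82 CPM over 2 libraries each. The log2 change was -0.38 ± 0.07 (SE), with a 95% interval of -0.52 to -0.24 and an adjusted p of 0.00271 (edgeR). The fall was called in all but one of the alternatives to this processing. Without resistant replicate 1 the log2 change was -0.33 with an adjusted p of 0.0792 (edgeR), where the adjusted p ranged from 1.01e-09 to 0.0792 over the alternatives.

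The partners of Il7r did not pass the test. Il2rg, the common gamma chain shared by the receptors for IL-2, IL-4, IL-7, IL-15 and IL-21, stood at 27.5 and 29.0 CPM in the JQ1S libraries, against 28.6 and 26.3 CPM in the JQ1R libraries (log2 change -0.04, 95% interval -0.23 to 0.16). Crlf2, which pairs with Il7r in the receptor for the cytokine TSLP, stood at 9.94 and 12.9 CPM in the JQ1S libraries, against 15.1 and 12.0 CPM in the JQ1R libraries. The lines overlapped for both genes. The log2 change of Crlf2 was 0.25 ± 0.15 (adjusted p = 0.432, edgeR). It was 0.44 and called without sensitive replicate 2 (adjusted p = 0.0474) and 0.06 without sensitive replicate 1, and its adjusted p over the alternatives ranged from 0.0474 to 1.00. Per kilobase of exons (RPKM, CPM divided by the exon length in kb), the level of Il7r was 26.1 ± 1.35 in sensitive and 20.05 ± 1.03 in resistant cells, that of Il2rg 11.8 ± 0.43 and 11.5 ± 0.68, and that of Crlf2 7.65 ± 1.41 and 9.05 ± 1.49. Of the summed RPKM of the 7 chains of this group with a row, Il7r made up 49.9% and 49.6% in JQ1S cells, against 40.6% and 44.6% in JQ1R cells. In the annotation, 30.5% of the exonic bases of Il2rg also belong to Gm20489 on the same strand, so its count depends on how shared reads were treated.

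The remaining chains of this group were lower per exon length than Il7r, Il2rg and Crlf2. Il2ra, the alpha chain of the IL-2 receptor, ranged from 18.5 to 24.0 CPM over the 4 libraries (log2 change -0.15, 95% interval -0.39 to 0.09), and Il4ra, the IL-4 receptor alpha chain, from 15.6 to 16.4 CPM (-0.03, -0.27 to 0.21). Neither was called. Il21r, the IL-21 receptor, had 6 and 6 counts in sensitive and 5 and 10 in resistant libraries, and Il13ra1, a chain of the IL-13 receptor, 3 and 2 against 4 and 0, so both were below the filter. Il2rb, the beta chain of the IL-2 and IL-15 receptors, had no row and is not analysed here.

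Il6ra (ENSMUSG00000027947, GRCm38 chr3:89864059-89913196, minus strand) was the other receptor chain that fell. Its level was 64.0 and 67.2 CPM in the JQ1S libraries, against 51.9 and 52.2 CPM in the JQ1R libraries, with no overlap. The mean fell 1.26-fold, from 65.6 ± 2.20 to 52.0 ± 0.20 CPM (SD, n = 2 for each), with a log2 change of -0.33 ± 0.07, a 95% interval of -0.48 to -0.18 and an adjusted p of 0.0127 (edgeR). The change kept its size under every alternative, between -0.37 and -0.30, but its call was lost in DESeq2 (adjusted p = 0.109) and when resistant replicate 1 (0.138) or 2 (0.141) was left out, and its adjusted p over the alternatives ranged from 8.30e-05 to 0.141. Il6st, which encodes the signalling chain gp130 shared by IL-6 and its relatives, stood at 27.1 and 26.2 CPM in the JQ1S libraries, against 25.4 and 28.5 CPM in the JQ1R libraries (log2 change 0.02, 95% interval -0.19 to 0.22). Il12rb1, a chain of the IL-12 and IL-23 receptors, had 0 and 1 counts in sensitive and 5 and 1 in resistant libraries. Il27ra had no row and is not analysed here.

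Flt3 (ENSMUSG00000042817, GRCm38 chr5:147330741-147400489, minus strand) stood at 1.7 and 1.65 CPM in the JQ1S libraries, against 3.84 and 3.11 CPM in the JQ1R libraries. The lines did not overlap. The level rose 2.08-fold, from 1.67 ± 0.03 to 3.48 ± 0.52 CPM (SD, n = 2 for each), with a log2 change of 1.04 ± 0.27, a 95% interval of 0.47 to 1.62 and an adjusted p of 0.0418 (edgeR). It rests on 118 counts over the 4 libraries, and per exon length Flt3 was at the 5.54th percentile of all tested genes. Its call was lost in DESeq2 (adjusted p = 0.504), limma-voom (0.0545), without resistant replicate 1 (0.329) and without resistant replicate 2 (0.0557). The log2 change stayed between 0.89 and 1.19, and the adjusted p over the alternatives ranged from 0.00907 to 0.504. The summed myeloid and T-cell markers given above were also somewhat higher in the resistant libraries, and their part in this result was not tested. The myeloid sum rests on 46 to 63 counts per library, and neither Cd68 nor Itgam was called. For Itgam, 68.7% of the exonic bases also belong to Gm49368 on the same strand.

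Of the other receptor tyrosine kinases of the list, Csf1r was near the limit of detection. Csf1r, the receptor of macrophage growth factor CSF1, had 1 and 0 counts in sensitive and 5 and 3 in resistant libraries, where 3 counts correspond to 0.231 to 0.292 CPM. Its counts are few, it was not tested, and 15.1% of its exonic bases overlap Hmgxb3 on the other strand. Kit, the receptor of stem cell factor, had no row and is not analysed here. Of the GM-CSF receptor chains, Csf2ra stood at 10.2 and 8.45 CPM in the JQ1S libraries, against 7.78 and 10.0 CPM in the JQ1R libraries (log2 change -0.07, 95% interval -0.42 to 0.27). The shared beta chain Csf2rb had 5 to 8 counts per library. Csf2rb has a near-identical copy, Csf2rb2, so its counts are uncertain.

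**Figure D2:**
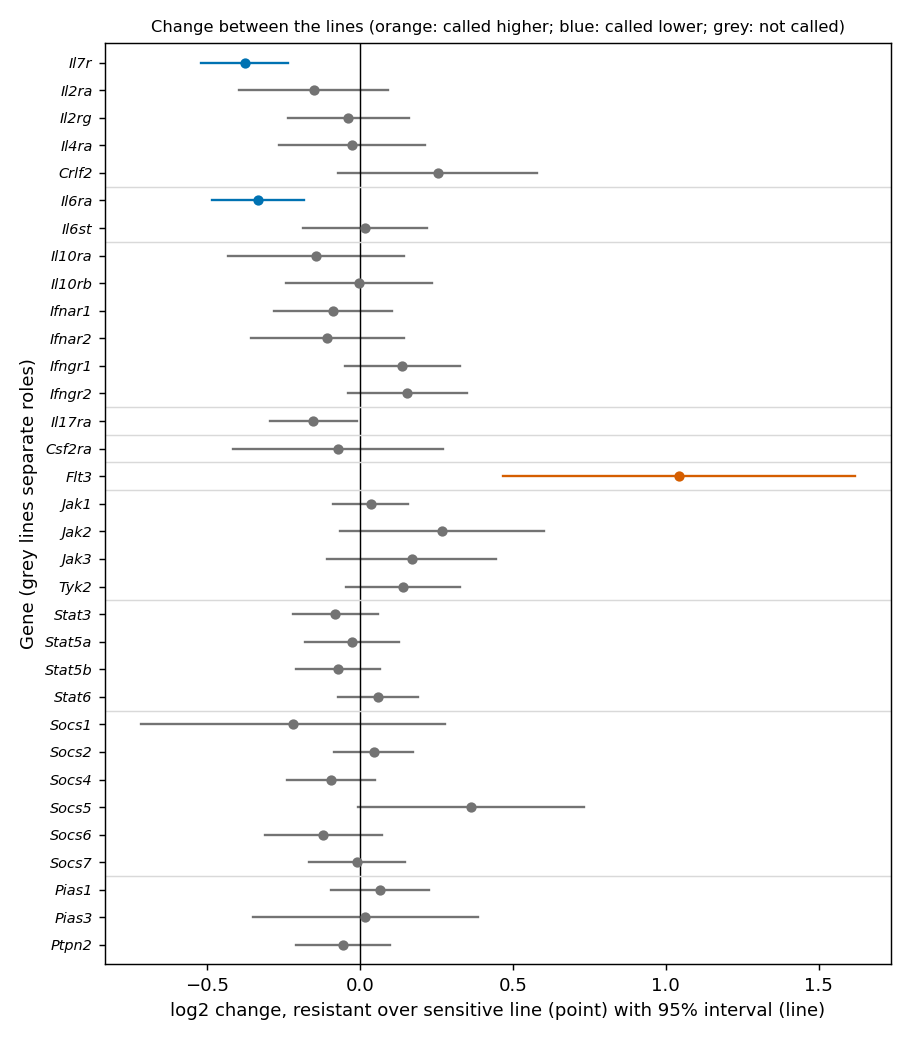
Log2 change of each tested gene, resistant over sensitive (points), with its 95% interval from the edgeR fit (lines), where orange marks a called rise and blue a called fall. The intervals of Il7r and Il6ra lie below 0, that of Flt3 lies above 0 and is the widest, and those of the uncalled genes other than Il17ra include 0.

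None of the 6 receptor chains for IL-10 and the interferons was called, and 0 of them had an unadjusted p below 0.05 (edgeR, with 0 called by DESeq2 and limma-voom as well). The edgeR shares over all tested genes were 3.73% and 16.9%, at which 0 among 6 is not unusual. Ifngr1, the ligand-binding chain of the interferon-gamma receptor, was the highest of the 6 chains per exon length, at 27.7 and 27.1 CPM in the JQ1S libraries, against 29.9 and 30.5 CPM in the JQ1R libraries. Ifngr2, its partner chain, stood at 25.97 and 26.8 CPM in the JQ1S libraries, against 28.3 and 30.4 CPM in the JQ1R libraries. Both chains lay higher in both resistant libraries than in either sensitive one, with log2 changes of 0.14 (95% interval -0.05 to 0.33, adjusted p = 0.462) and 0.16 (-0.04 to 0.35, adjusted p = 0.419). The type I interferon receptor chains Ifnar1 (32.8 to 38.3 CPM over the 4 libraries) and Ifnar2 (13.9 to 16.4 CPM) had log2 changes of -0.09 and -0.11. The IL-10 receptor chains Il10ra (12.9 to 17.5 CPM) and Il10rb (15.7 to 17.1 CPM) had -0.14 and 0.00. Ifnar2, Il10rb, Ifnar1 and Ifngr2 lie together within 192.8 kb of chromosome 16 (GRCm38 chr16:91372783-91565623), and the log2 changes over this cluster ran from -0.11 to 0.16. Gm21970 shares 9.46% of the exonic bases of Ifnar2 and 14.9% of those of Il10rb on the same strand, so these counts depend on how shared reads were treated.

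Il17ra, the receptor chain for IL-17, which signals without JAKs, was highly expressed at 105 and 114 CPM in the JQ1S libraries, against 94.6 and 102 CPM in the JQ1R libraries. The resistant libraries lay below the sensitive ones by a margin smaller than the spread within either line. The log2 change was -0.15 ± 0.07 (95% interval -0.30 to -0.01, adjusted p = 0.265, edgeR). Without sensitive replicate 1 it was -0.21 and called (adjusted p = 0.0116). Leaving out the other sensitive library gave -0.09, and the adjusted p over the alternatives ranged from 0.0116 to 0.870.

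All 4 JAK genes had a positive log2 change, as did 14 of the 33 tested members and 6082 of the 11945 tested genes. None of the 4 was called, with 0 at an unadjusted p below 0.05 (edgeR, and 0 called by DESeq2 and limma-voom). With 3.73% and 16.9% of all tested genes at these limits in edgeR, 0 among 4 is not unusual. Jak1, which serves the IL-7, IL-6 and interferon receptors, stood at 177.7 and 178.4 CPM in the JQ1S libraries, against 187 and 178.1 CPM in the JQ1R libraries. Its log2 change was 0.03 ± 0.06, with a 95% interval of -0.09 to 0.16. Jak2, which serves single-chain and GM-CSF-type receptors, stood at 7.09 and 6.61 CPM in the JQ1S libraries, against 7.87 and 8.67 CPM in the JQ1R libraries, without overlap (log2 change 0.27, -0.06 to 0.60, adjusted p = 0.409). Jak3, the partner of the common gamma chain, ranged from 11.4 to 14.6 CPM over the libraries (0.17, -0.11 to 0.45), with overlap. Tyk2, which serves interferon and IL-12 receptors, stood at 28.6 and 30.5 CPM in the JQ1S libraries, against 32.6 and 32.4 CPM in the JQ1R libraries (0.14, -0.05 to 0.33), without overlap. For Jak3, 7.55% of the exonic bases also belong to Insl3 on the same strand, so its count depends on how shared reads were treated. For Tyk2, 8.07% of the exonic bases overlap a gene on the other strand. Per exon length, Jak1 made up 76.1% and 74.9% of the summed RPKM of the 4 kinases in JQ1S cells, against 74.1% and 73.4% in JQ1R cells.

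Of the 4 STAT genes with a row, Stat5b and Stat6 were the highest of all members per exon length, while Stat3 and Stat5a stood lower at 8.61 and 8.46 RPKM. Stat5b, a transducer of IL-7 and IL-2 signals, stood at 159 and 178 CPM in the JQ1S libraries, against 159 and 161 CPM in the JQ1R libraries (log2 change -0.07, 95% interval -0.21 to 0.07). Stat5a, its close paralog, ranged from 58.6 to 63.3 CPM (-0.03, -0.18 to 0.13). Stat6, the transducer of IL-4 signals, stood at 112 and 118 CPM in the JQ1S libraries, against 120.2 and 119.8 CPM in the JQ1R libraries (0.06, -0.07 to 0.19). Stat3, the transducer of IL-6 and IL-10 signals, stood at 83.3 and 85.4 CPM in the JQ1S libraries, against 78.1 and 81.3 CPM in the JQ1R libraries (-0.08, -0.22 to 0.06). Stat6 lay slightly higher and Stat3 slightly lower in both resistant libraries, while the lines overlapped for Stat5a and Stat5b. None of the 4 was called or had an unadjusted p below 0.05 (edgeR, and 0 called by DESeq2 and limma-voom). In edgeR 3.73% and 16.9% of all tested genes did, so 0 among 4 is not unusual. Stat5b, Stat5a and Stat3 are neighbours on chromosome 11 (GRCm38 chr11:100780731-100939540). Stat5a and Stat5b are alike in sequence, so reads could be split between them. Stat4 had no row and is not analysed here.

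**Figure D3:**
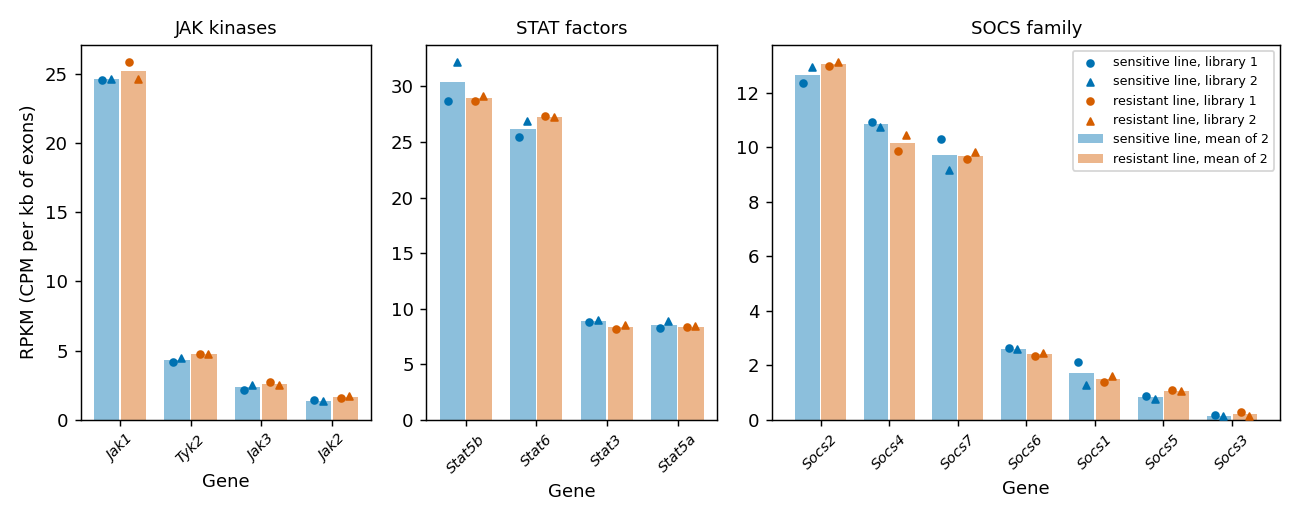
Level per exon length (RPKM) of the JAK, STAT and SOCS genes with a row, with bars for the mean of 2 libraries per line and points for single libraries. Jak1 stands far above the other kinases, Stat5b and Stat6 above Stat3 and Stat5a, and Socs2, Socs4 and Socs7 above the other SOCS genes, in both lines.

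Of the 8 SOCS-family genes 6 were tested and none was called, with 0 at an unadjusted p below 0.05 (edgeR, and 0 called by DESeq2 and limma-voom). Beside 3.73% and 16.9% of all tested genes in edgeR, 0 among 6 is not unusual. Socs2, a feedback inhibitor known as a STAT5 target, was the highest per exon length and stood at 118 and 123.5 CPM in the JQ1S libraries, against 123.7 and 125 CPM in the JQ1R libraries. Its log2 change was 0.04 ± 0.06, with a 95% interval of -0.08 to 0.17. Socs4 (67.7 to 75.2 CPM over the libraries) and Socs6 (26.5 to 29.7 CPM) lay lower in both resistant libraries, with log2 changes of -0.10 and -0.12. Socs7 ranged from 66.6 to 74.8 CPM (-0.01). Socs5 stood at 5.63 and 4.86 CPM in the JQ1S libraries, against 6.96 and 6.65 CPM in the JQ1R libraries, and its log2 change of 0.36 ± 0.17 (95% interval -0.01 to 0.73, adjusted p = 0.307, edgeR) was the highest among the members that were not called.

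Socs1 and Socs3, feedback inhibitors known for induction by cytokines, had low counts. Socs1, which blocks JAKs directly, stood at 6.17 and 3.69 CPM in the JQ1S libraries, against 4.03 and 4.63 CPM in the JQ1R libraries. The sensitive libraries differed from each other by 0.71 on the log2 scale, more than for any other tested member. Its log2 change between the lines was -0.22 (95% interval -0.72 to 0.28). Leaving out sensitive replicate 1 turned it to 0.23 and leaving out the other gave -0.51, with no call in either case. Socs3, which binds gp130, had 6 and 4 counts in sensitive and 9 and 4 in resistant libraries and was below the filter. Cish, a STAT5 target, had no row and is not analysed here.

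None of the 3 further regulators was called, beside 3.73% of all tested genes. Ptpn2, a phosphatase of JAKs and STATs, stood at 56.1 and 55.4 CPM in the JQ1S libraries, against 55.1 and 52.4 CPM in the JQ1R libraries (log2 change -0.05, 95% interval -0.21 to 0.10). Pias1, a SUMO ligase, ranged from 52.8 to 58.6 CPM (0.07, -0.09 to 0.23), and Pias3, which binds STAT3, from 5.93 to 6.86 CPM (0.02, -0.35 to 0.39). For Ptpn2 both resistant libraries lay below both sensitive ones, and for Pias1 and Pias3 the lines overlapped.

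Per exon length, the members with the highest mean over the 4 libraries were Stat5b (29.7 RPKM), Stat6 (26.7), Jak1 (24.9), Il7r (23.1), Ptpn2 (17.5), Socs2 (12.9), Il17ra (12.0), Il2rg (11.7), Socs4 (10.5) and Ifngr1 (10.1). The median over the 33 tested members was 6.81 RPKM and that over all tested genes 7.12 RPKM. The order depends on the length used. With coding length in place of exon length, 8 of these 10 stayed among the 10 highest, and Socs2, whose exons span 9531 bases and its coding sequence 744, moved to first at 164.6 RPKM, ahead of Il7r at 78.1 RPKM.

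A miss of the threshold does not show equal levels, so the intervals of the 30 uncalled members were counted. For 26 of them the 95% interval of the log2 change lay within 0.5 of 0, and for 13 within 0.25 of 0. The bounds reached from -0.72 (Socs1) to 0.73 (Socs5). For 18 of the 33 tested members the libraries of the sensitive line differed from each other by more than the lines did. This sets single libraries against line averages and was not counted over all tested genes, so it marks no trait of the members. The median size of that difference within the sensitive line was 0.09 on the log2 scale over the members, beside 0.12 over all tested genes, and within the resistant line it was 0.09 and 0.08.

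**Figure D4:**
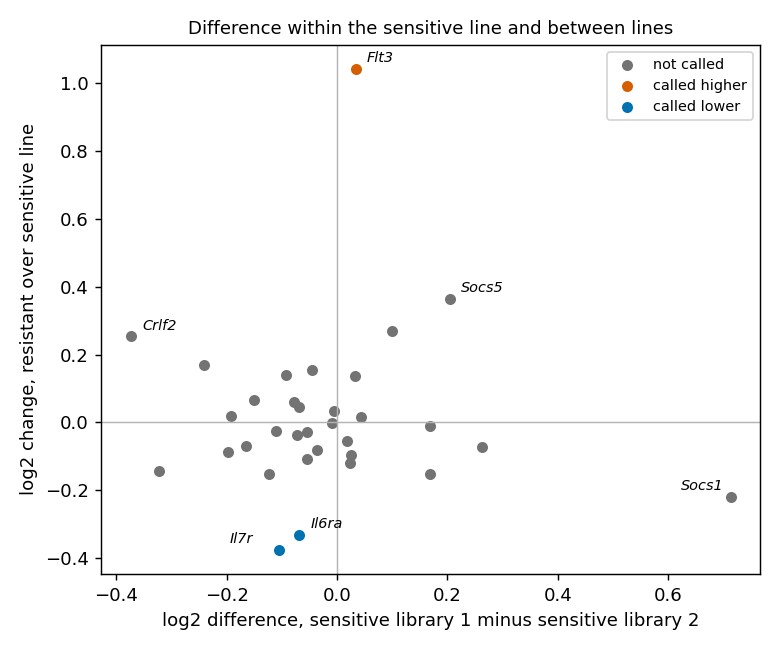
Each point is a tested member, with the log2 difference between the 2 sensitive libraries on the x axis and the log2 change between the lines on the y axis. Flt3, Il7r and Il6ra have a change between the lines larger than the difference within the sensitive line, whereas for Socs1 and Crlf2 the difference within the sensitive line is the larger one.

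Genes near the called members were compared as well. Among the 10 tested genes nearest to each of Il7r, Il6ra and Flt3 on the chromosome, 0 were called higher and 0 lower (edgeR). Over all tested genes 3.73% were called, at which 0 among 10 is not unusual. Median log2 changes of these neighbours were -0.13 around Il7r (range -0.91 to 0.18), -0.09 around Il6ra (-0.47 to 0.06) and 0.03 around Flt3 (-0.12 to 0.16). The farthest of the 10 lay 1.3 Mb, 0.269 Mb and 0.790 Mb away, in that order.

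The count of called members moved with the tool and the libraries used. DESeq2 called 1 member, beside 1.74% of all tested genes, and limma-voom 2, beside 3.69%. Without resistant replicate 1 there were 0 called members, beside 2.45% of all genes, and without resistant replicate 2 there was 1, beside 2.21%. Without sensitive replicate 1 there were 4, beside 11.3% of all genes, and without sensitive replicate 2 also 4, beside 9.68%. The count was 3 in the remaining settings, beside 2.94% of all genes with no filter, 3.68% with DESeq2 size factors, 3.56% with library sizes, 3.57% with upper quartile factors and 4.98% with the replicate number as a block.

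**Figure D5:**
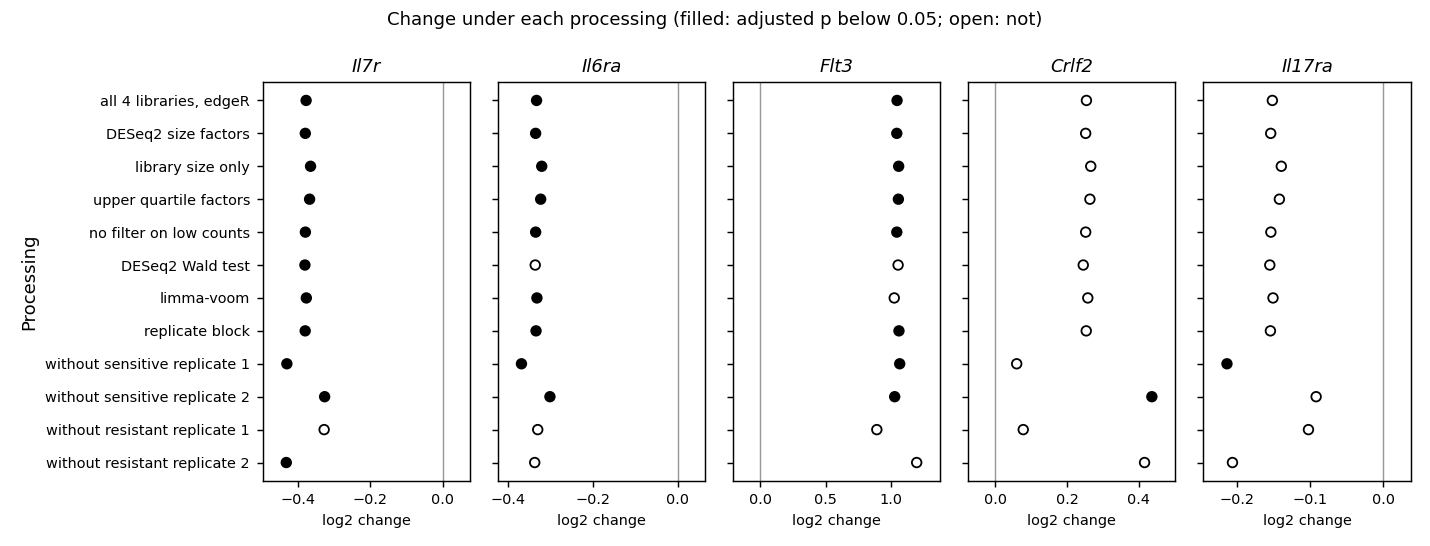
Log2 change, resistant over sensitive, of the 3 called members and of the 2 called only under an alternative, for each processing (filled circles for an adjusted p below 0.05, open for above). Il7r is open only without resistant replicate 1, Il6ra is open in 3 settings and Flt3 in 4, and Crlf2 and Il17ra are filled in 1 each.

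Other genes of the pathway were taken from 4 lists. Over all tested genes, 3.73% were called and 16.9% had an unadjusted p below 0.05 (edgeR). Of 33 other cytokine receptor chains 16 had a row and 7 were tested, and 0 were called (1 with an unadjusted p below 0.05 in edgeR, and 0 called by DESeq2 and limma-voom). The lowest p was that of Il5ra, the IL-5 receptor alpha chain, at 0.848 and 0.777 CPM in the JQ1S libraries, against 1.65 and 1.77 CPM in the JQ1R libraries (log2 change 1.06, adjusted p = 0.146), followed by Il18r1 (0.54, adjusted p = 0.542). Of 33 cytokine ligands 8 had a row and 5 were tested, and 0 were called (1 with an unadjusted p below 0.05 in edgeR, and 0 called by DESeq2 and limma-voom). The lowest p values were those of Clcf1, a relative of IL-6 (log2 change 0.43, adjusted p = 0.263), and Osm, oncostatin M (-0.21, adjusted p = 0.636). Clcf1 was called without sensitive replicate 2 (0.67, adjusted p = 0.0221), and its adjusted p over the alternatives ranged from 0.0221 to 0.986.

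Of 27 other signal transducers and regulators 24 were tested, and 1 rose and 0 fell. That is 4.17% called, near the 3.73% of all tested genes. An unadjusted p below 0.05 (edgeR) was found for 7 of the 24, beside 16.9% of all tested genes, and the lines did not overlap for 14 (58.3%), beside 47.3% of all. The gene that rose was Ptpn6, which encodes SHP-1, a phosphatase of JAKs and of antigen receptor signalling. It stood at 109.8 and 124.8 CPM in the JQ1S libraries, against 154 and 147 CPM in the JQ1R libraries, without overlap (log2 change 0.36 ± 0.07, adjusted p = 0.00484, edgeR, or 0.0553 without resistant replicate 1, with a range of 1.87e-11 to 0.0553 over the alternatives). The adaptors Sh2b2 (log2 change -0.55, adjusted p = 0.0641) and Sh2b1 (-0.22, adjusted p = 0.126) had the next lowest p-values. Both were lower in both resistant libraries, at 7.05 and 6.14 CPM against 9.56 and 9.72 CPM for Sh2b2. Sh2b2 was called when either sensitive library was left out (adjusted p = 0.0359 and 0.0364), and its adjusted p over the alternatives ranged from 0.0247 to 0.613.

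Of 24 genes known to respond to STATs in some cell types 16 were tested, and 1 rose and 1 fell. That is 12.5% called, from 2 genes, beside 3.73% of all tested genes. An unadjusted p below 0.05 (edgeR) was found for 6 of the 16, beside 16.9% of all tested genes, and the lines did not overlap for 12 (75.0%), beside 47.3% of all. The resistant libraries were the higher ones for 5 of these 12 and the lower ones for 7. Both the 6 and the 12 include Myc (log2 change -0.14, adjusted p = 0.25, edgeR), which the heavy-chain enhancer drives in these lines. The 12 also include Osm, which is on the ligand list as well. Ccnd3, a cyclin of the G1 phase, stood at 98.9 and 101.7 CPM in the JQ1S libraries, against 80.5 and 79.4 CPM in the JQ1R libraries (log2 change -0.33 ± 0.06, adjusted p = 0.00621, edgeR). Leaving out either resistant library ended this call (adjusted p = 0.0745 and 0.128, within a range of 8.24e-06 to 0.128). Id2, an inhibitor of E-protein transcription factors, rose from a low level, 0.848 and 1.36 CPM against 2.29 and 3.54 CPM (log2 change 1.44 ± 0.35, adjusted p = 0.0285). It was not called by DESeq2 (0.327), without sensitive replicate 1 (0.0706) or without resistant replicate 2 (0.38), and the range over the alternatives was 0.00177 to 0.38. Among the genes not called, Tnfrsf13b, the receptor TACI (0.24, adjusted p = 0.0988), and Batf (-0.67, adjusted p = 0.239) had the lowest p-values. Tnfrsf13b was called without sensitive replicate 2 (adjusted p = 0.00144, within a range of 0.00144 to 0.612). The median log2 change was -0.05 over the transducers and -0.02 over the STAT-responsive genes, beside 0.00 over all tested genes.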

How the data were processed

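RNA of 4 libraries, 2 per line, was sequenced, and the authors deposited raw counts for 16591 Ensembl genes, the lowest sum over libraries being 4. The submitters' processing notes list GRCm38 and mm10 as builds and HTSeq, TopHat, Bowtie2, cutadapt 1.7, limma and FastQC as tools. What each did, which annotation was counted and whether strand was used is not given in the sources used here. Groups came from the titles. Symbols, positions and exon lengths came from GENCODE M21 (16407 identifiers matched, 184 did not), and promoter sequences from RefSeq.

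Counts were fitted with glmQLFit and glmQLFTest of edgeR 4.0.16 (R 4.3.3) with TMM factors, group alone, and filterByExpr (minimum count 10, minimum total 15), over 11945 genes. Benjamini-Hochberg adjusted p-values below 0.05 were called. Standard errors and 95% intervals derive from the F statistic. RPKM is CPM per kb of merged exons. Alternatives were 3 other scalings, no filter, DESeq2 1.42.0, limma-voom (limma 3.58.1), the replicate block and leaving out each library. Intervals cover the spread between libraries only.

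The members and lists were chosen with earlier results of these data known. Values in full are given for members called in the edgeR fit or under an alternative, for those with a change of at least 0.5 on the log2 scale and for the highest per length of each role. From the other lists, each called gene, the next 2 by p and Myc are named. The fit was tested on simulated data for this comparison over 11786 genes, 200 of them changed and all with a mean count above 100. Of 50 genes per size, 32 were recovered for a 1.25-fold change, 49 for 1.5-fold, and 50 for either 2-fold or 4-fold. There were 13 false calls. Every simulated gene was given the same dispersion, so these rates do not cover spread that differs by gene. Nor do they cover changes in low-count genes such as Flt3 and Socs1.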

Additional observations from a re-analysis of the deposited data

How the results depend on the processing

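The 3 other scalings and the absence of a filter changed the call of no member. Of the 3 called members DESeq2 called 1 (Il7r) and limma-voom 2 (Il7r and Il6ra), and the count was 0 to 4 when 1 library was left out: 0 without resistant replicate 1, 1 (Il7r) without resistant replicate 2, and 4 without either sensitive library. Among the other genes of the pathway 3 were called with all libraries, and 1 to 9 when 1 library was left out. Over all genes 445 were called, 208 with DESeq2 and 270 to 1381 when 1 library was left out. The other pathway genes tested with all libraries numbered 51, and 3.73% of all tested genes were called there. Their count was higher without either sensitive library and lower without either resistant one, as was that of all genes. The range of their count therefore marks no trait of the pathway genes. When 1 library is left out, the lone library of its line is assumed to vary like the pair of the other line. No called member changed direction under any alternative. Same-numbered libraries did not deviate together across genes as a whole (correlation of deviations -0.02). The labels do not say whether they shared a culture or batch, and a correlation over all genes cannot settle it. With the replicate block 3 members, 4 other pathway genes (Sh2b2 added, adjusted p = 0.0247) and 595 genes in all were called. Depth limits Flt3, Socs1 and the 6 members below the filter, and the p-values rest on 2 libraries per line.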
